A study of Mus musculus with 4 samples.

Results

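Regulatory T cells (Tregs) of the thymus of deltaDC mice were set against Tregs of the spleen of deltaDC mice. The measure was the log2 fluorescence of every named gene on the thymus array minus that on the spleen array, after each array's 75th percentile had been subtracted. A gene was taken as measured when it stood well above background on both arrays, by the scanner software's own flag, which held for 12772 of 22250 genes with a symbol. Of the other genes, 723 were above background on the thymus array alone, 597 on the spleen array alone and 8142 on neither, and the probes of a further 16 disagreed. Near the flag's limit, the dimmest measured gene had a signal of 15.8 on the thymus array and 15.4 on the spleen array, and the brightest unmeasured gene had 21.8 on the thymus array and 19.7 on the spleen array.

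The series holds 4 groups of male C57BL/6 mice: deltaDC thymus, deltaDC spleen, wild-type (WT) thymus and WT spleen. Each group is 1 array made from cells pooled from 3 mice. The name deltaDC is not explained in the labels, is used in the field for mice that lack most dendritic cells, and comes without an allele, promoter or age, so no targeted gene could check the genotype. CD4 T cells were enriched with a negative-selection kit from spleen and by removal of CD8-positive cells from thymus, and live CD4+CD25+ cells were sorted, with no sort on Foxp3. Organ and enrichment method therefore cannot be told apart. Signals are given on a common scale on which the 75th percentile of every array is 388. With 1 array per group no replicate error exists, and precision is limited by the array number. Errors given after ± are standard errors of the difference between both arrays. They combine the SD of repeated spots at the signal on each array and are smaller for probes with repeated spots. Variation between mice, sorts and labellings is left out.

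Tregs hold immune responses in check, belong to the CD4 T cells and depend on the transcription factor Foxp3. They arise in the thymus from precursors that rearrange their antigen receptor genes and are selected by receptor signals, and they then leave through the blood for organs such as the spleen. The Treg pool of a thymus holds newly formed cells and cells that have returned from the periphery. Treg cells that have responded to antigen in the periphery, called effector Tregs, gain receptors, granule proteins and transcription factors that resting Tregs lack. In bulk samples, fewer cells of a type and less RNA per cell cannot be told apart.

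Foxp3 was bright in both organs. It had a signal of 10557 on the deltaDC thymus array and 10867 on the deltaDC spleen array, against 8860 on WT thymus and 11661 on WT spleen. The deltaDC organ difference of Foxp3 was -0.04 ± 0.07, so the arrays do not differ beyond the spot error. Of 9 measured genes of all T cells, 8 lay within 2-fold between the deltaDC organs. The exception was Thy1, a T cell surface glycoprotein, at -1.12. That share is near the one over all measured genes, of which 11.5% differed at least 2-fold. Cd3d, Cd3e, Cd3g, Cd4 and Lck were bright on all 4 arrays.

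The promoters of 4 genes of the quiescence and egress list, described further on, are shown because they are the list's largest measured organ differences with an entry in the promoter table. Each is the 250 bases upstream of the RefSeq transcript start, on GRCm38.p6, written 5′ to 3′ along the gene, with motif matches in capitals. Il7r, the interleukin-7 receptor alpha chain, lies at chr15:9529877-9530126 on the minus strand. Bach2, a repressor that holds T cells in a resting state, lies at chr4:32417185-32417434, Klf3, a Krüppel-like repressor, at chr5:64803271-64803520 and Igfbp4, an insulin-like growth factor binding protein, at chr11:99040994-99041243, all on the plus strand.
Il7r: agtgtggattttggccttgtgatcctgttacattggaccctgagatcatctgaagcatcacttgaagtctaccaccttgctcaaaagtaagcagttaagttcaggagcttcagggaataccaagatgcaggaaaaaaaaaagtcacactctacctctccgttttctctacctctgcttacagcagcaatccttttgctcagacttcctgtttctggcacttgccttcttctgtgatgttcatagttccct
Bach2: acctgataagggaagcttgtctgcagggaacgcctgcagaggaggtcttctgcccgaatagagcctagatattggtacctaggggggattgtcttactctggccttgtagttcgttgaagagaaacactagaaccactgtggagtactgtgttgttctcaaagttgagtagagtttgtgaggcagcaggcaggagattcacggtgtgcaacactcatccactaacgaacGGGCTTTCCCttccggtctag
Klf3: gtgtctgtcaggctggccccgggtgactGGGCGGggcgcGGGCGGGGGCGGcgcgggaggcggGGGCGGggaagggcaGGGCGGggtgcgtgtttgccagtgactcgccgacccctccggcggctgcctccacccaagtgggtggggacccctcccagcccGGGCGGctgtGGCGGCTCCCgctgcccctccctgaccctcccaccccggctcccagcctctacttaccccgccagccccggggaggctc
Igfbp4: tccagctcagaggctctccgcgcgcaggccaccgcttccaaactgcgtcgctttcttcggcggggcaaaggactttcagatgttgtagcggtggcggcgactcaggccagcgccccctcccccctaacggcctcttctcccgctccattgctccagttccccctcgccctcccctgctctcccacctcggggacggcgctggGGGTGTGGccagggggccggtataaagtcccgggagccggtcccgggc

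On both strands, 6 motifs were searched: GGGTGTGG and GGGCGG of the KLF type, CAGCTG of the E protein type, CTTTGAA and CTTTGAT of the TCF/LEF type, and one of the NF-kappaB type, spelled GGGA, 4 of any base, then CC. The GGGCGG type can overlap others in GC-rich sequence. Il7r held 0 matches and Bach2 1 of the NF-kappaB type. Klf3 held 7, of which all but 1 were GGGCGG, and Igfbp4 held 1 of GGGTGTGG. Over promoters of measured genes, 21.5% held the NF-kappaB type, 57.1% GGGCGG, 3.55% GGGTGTGG, 11.5% CAGCTG, 3.36% CTTTGAA and 2.27% CTTTGAT. Among 145 promoters of genes at least 4-fold higher in deltaDC thymus, 28.3% held the NF-kappaB type, against 24.3% of 169 at least 4-fold lower. CAGCTG stood in 11.7% of those higher and 15.4% of those lower, CTTTGAA in 1.38% and 4.73%, and CTTTGAT in 3.45% and 1.18%. GGGCGG stood in 50.3% of those higher and 50.3% of those lower, and GGGTGTGG in 4.83% and 5.33%. A match is a description of these letters in these windows.

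Most of the transcriptome was close between the organs, while 1472 of the 12772 measured genes (11.5%) differed at least 2-fold. Of these, 691 (5.41%) were higher and 781 (6.11%) lower on the deltaDC thymus array. Every deltaDC list count in this report is to be read beside these shares. At 4-fold the counts were 189 higher and 226 lower, and at 8-fold 63 higher and 53 lower. The median difference was -0.01, and 71.2% of genes lay within 0.5 log2 units. The counted genes nearest the limit had differences of 1.0007 and -1.0008, and the nearest uncounted ones 0.9996 and -0.9981. A further 594 genes, above background on the thymus array alone, were at least 2-fold higher by a bound, and 212, above background on the spleen array alone, were at least 2-fold lower. A bound sets the bright signal against the higher of the lowest signal of any probe above background on the other array and the gene's own dim signal. That lowest signal was 9.25 on the spleen array, from a single probe with the next at 11.9, and 15.8 on the thymus array. It lies below the brightest unmeasured gene, and against that gene's signal on the other array, an alternative chosen after the data were seen, the bounds past 2-fold numbered 294 above and 137 below. A comparison of 1 array with 1 array gives no p-value.

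**Figure D1:**
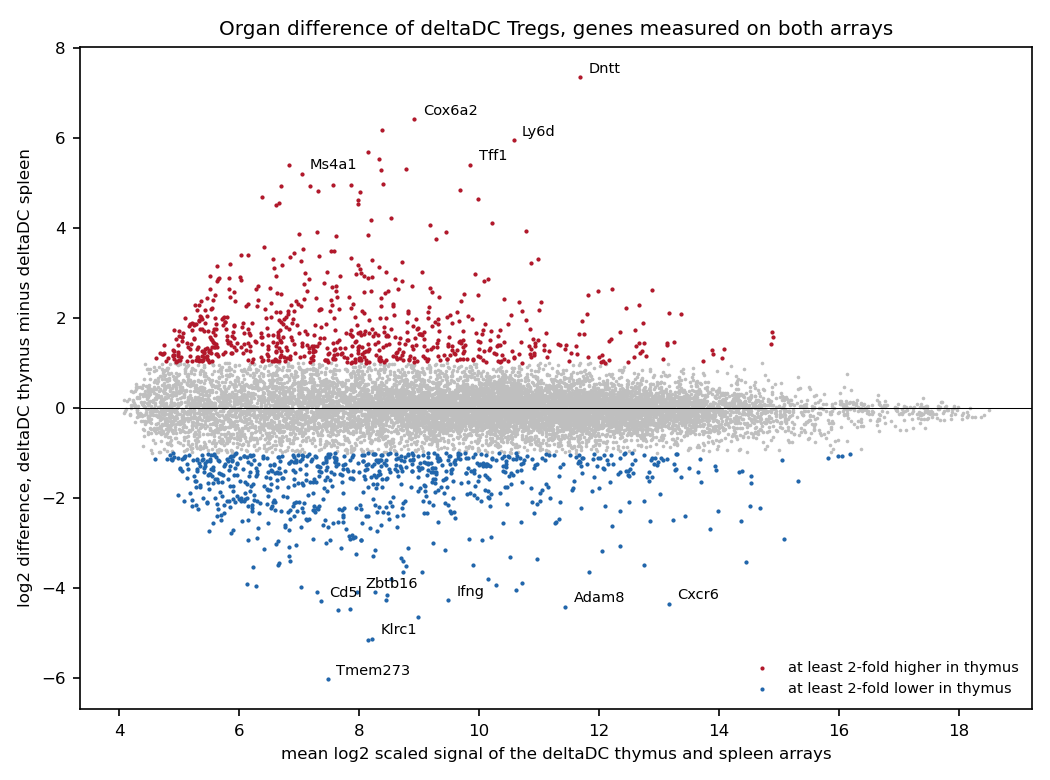
Log2 difference of deltaDC thymus minus deltaDC spleen (vertical) against the mean log2 scaled signal of both arrays (horizontal) for the 12772 measured genes, 1 point a gene, with 691 at least 2-fold higher and 781 at least 2-fold lower genes coloured. Dntt stands highest at 7.35 and Tmem273 lowest at -6.03.

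The genes furthest above 0 were led by Dntt, which encodes the terminal transferase that adds bases at receptor gene joints in developing lymphocytes. Dntt had a signal of 42148 on deltaDC thymus and 258 on deltaDC spleen, against 46281 on WT thymus and 343 on WT spleen, an organ difference of 7.35 ± 0.11 in deltaDC. Ly6d, a surface protein of early lymphoid cells, had 12026 on deltaDC thymus and 194 on deltaDC spleen, against 11861 on WT thymus and 296 on WT spleen (5.95 ± 0.11). Both genes were bright on both thymus arrays and dim on both spleen arrays. Cox6a2, a cytochrome oxidase subunit that the plasmacytoid dendritic cell marker list holds, as it does Ly6d, had 4492 on deltaDC thymus and 52.5 on deltaDC spleen, against 72.5 on WT thymus and 5.0 on WT spleen, so its level on the deltaDC thymus array stood above the other 3. Epb41l4b (6.17), Tmem121 (5.68), Myl10 (5.53), Tff1 (5.41), Rab44 (5.31), the water channel Aqp11 (5.28), the adhesion receptor Adgrg1 (4.98) and Gm4632 (4.96) were also among the 15 highest. The B cell genes Ms4a1 (5.21) and Vpreb3 (4.97) and the plasma cell gene Mzb1 (4.94) were among them too.

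The genes furthest below 0 were led by Tmem273. It had 22.1 on deltaDC thymus and 1443 on deltaDC spleen, against 39.4 on WT thymus and 441 on WT spleen, a deltaDC difference of -6.03 ± 0.31. Klrc1, a natural killer (NK) cell receptor chain, had 50.5 on deltaDC thymus and 1769 on deltaDC spleen, against 30.2 on WT thymus and 28.0 on WT spleen (-5.13 ± 0.17), so only the deltaDC spleen array was bright. Adam8, a membrane protease, had 601 on deltaDC thymus and 12871 on deltaDC spleen, against 515 on WT thymus and 939 on WT spleen (-4.42 ± 0.09). Il4 (-5.15), Klrb1c (-4.65), Tmprss13 (-4.50), Arl4d (-4.48), Cxcr6 (-4.35), Cd5l (-4.30), Ifng (-4.28), Klrb1a (-4.27), Soat2 (-4.17), Serpina3f (-4.10), Zbtb16 (-4.09) and Atp8a2 (-4.09) completed the 15 lowest. The genes named here at both ends keep their sign on every other measured probe of the gene.

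The highest bounds were those of Rag1, at least 257-fold higher, the imprinted non-coding RNA H19, at least 244-fold, and Notch3, at least 177-fold. Ptcra and Endou were 317-fold and 177-fold above their own dim spleen signal, a plain ratio and no strict limit. Against the brightest unmeasured gene of the spleen array, Rag1 was 121-fold, H19 115-fold, Notch3 83.4-fold, Ptcra 162-fold and Endou 110-fold higher. The lowest were Trpm6, a magnesium channel, at least 29.7-fold lower, the matrix protease Mmp9, at least 25.2-fold, the NK receptor Klrc3, at least 13.1-fold, Tafa3, at least 11.6-fold, and the ficolin Fcna, at least 11.6-fold. Against the brightest unmeasured gene of the thymus array, Trpm6 was 21.55-fold, Mmp9 18.3-fold, Klrc3 9.47-fold, Tafa3 8.44-fold and Fcna 8.38-fold lower.

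Genes of immature thymocytes were higher in the thymus. Of 21 on the array, 14 were measured in deltaDC, of which 7 were at least 2-fold higher and 1 lower, and 6 more were higher by a bound. Their median was 1.06, against -0.01 over all measured genes. Rag1, which with Rag2 cuts DNA in receptor rearrangement, had 2374 on deltaDC thymus and 3.18 on deltaDC spleen, against 2532 on WT thymus and 17.3 on WT spleen. Ptcra, the surrogate alpha chain of the pre-receptor, had 3192 on deltaDC thymus and 10.1 on deltaDC spleen, against 3573 on WT thymus and 7.79 on WT spleen. Both were thymic in both genotypes. Rag2 and Cd8a were higher by bounds of 67.8-fold and 21.9-fold, and Arpp21 and Bcl11a were 75.8-fold and 20.8-fold above their own dim spleen signal, a plain ratio. Against the brightest unmeasured gene of the spleen array, Rag2 was 31.9-fold, Cd8a 10.3-fold, Arpp21 39.6-fold and Bcl11a 17.3-fold higher. Cd24a, a surface protein lost as thymocytes mature, had 4410 on deltaDC thymus and 153 on deltaDC spleen, against 3695 on WT thymus and 96.6 on WT spleen (4.85 ± 0.11). Sox4 (3.94), Myb (2.60), Itm2a (2.08) and Cd8b1 (1.31) were higher as well. Ccr9 (0.81), Satb1 (0.77), Tox (0.47), Cd1d1 (0.34), Themis (0.32) and Mns1 (0.26) lay within 2-fold. In WT, 9 of 15 measured members were higher and 0 lower, with a median of 1.78.

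The receptor signal response list holds genes induced when the antigen receptor is engaged. In deltaDC, 6 of 20 measured members were higher and 0 lower, with a median of 0.43. Cd40lg, a ligand of T cell help, was lower by a bound of 2.26-fold. Against the brightest unmeasured gene of the thymus array, Cd40lg was 1.64-fold lower. Dusp4, a MAP kinase phosphatase, had 2890 on deltaDC thymus and 409 on deltaDC spleen, against 3157 on WT thymus and 596 on WT spleen (2.82 ± 0.09). Nr4a1, the nuclear receptor also called Nur77, had 54484 on deltaDC thymus and 16885 on deltaDC spleen, against 48123 on WT thymus and 21542 on WT spleen (1.69 ± 0.07). Nr4a3 (2.31), Nr4a2 (1.51), Cd200 (1.27) and Myc (1.18) were higher too. The receptor machinery itself, from Cd3d, Cd3e and Cd3g to Lck, Zap70 and Lat, had 0 of 20 members past 2-fold. Its differences lay between -0.90 (Nfatc1) and 0.57 (Themis2), with a median of -0.19. Over all measured genes, 5.41% were higher and 6.11% lower, so few of 20 genes would pass 2-fold at those shares. In WT, 4 of 20 response genes were higher and 0 lower, and the median was 0.30, and of the machinery Themis2 was higher at 2.04.

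Of the core Treg genes, 19 were measured, 15 of them within 2-fold, and their median was -0.16. Over all measured genes, 5.41% were higher and 6.11% lower. Gpr83 was higher, with 321 on deltaDC thymus and 138 on deltaDC spleen, against 255 on WT thymus and 380 on WT spleen (1.22 ± 0.12). Il10ra (-1.05), the cytokine suppressor Socs2 (-1.63) and Entpd1 (-1.81), an ectoenzyme that degrades ATP, were lower. Entpd1 had 47.3 on deltaDC thymus and 166 on deltaDC spleen, against 82.8 on WT thymus and 165 on WT spleen. Within 2-fold, from high to low, lay Swap70 at 0.95, Ikzf4 at 0.78, Tnfrsf4 at 0.76, the interleukin-2 receptor chain Il2ra at 0.72, Tnfrsf18 at 0.42, Lrrc32 at 0.41 and Ikzf2 at 0.14. Ctla4 stood at -0.16, Itgb8 at -0.17, Nrp1 at -0.20, Izumo1r at -0.46, Capg at -0.58, Il2rb at -0.63 and Nt5e at -0.71. In WT 3 were lower, 0 were higher and the median was -0.24.

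Effector Treg genes were the programme furthest below 0. Of 33 genes on the array 32 were measured, and 22 were lower on the deltaDC thymus array and 0 higher. Over all measured genes, 5.41% were higher and 6.11% lower. Il10, a suppressive cytokine, was lower by a bound of 11.3-fold, and by 8.23-fold against the brightest unmeasured gene of the thymus array. The list median was -1.97. In WT the same list had 5 genes higher, 1 lower and a median of 0.29. For the 30 members that all 4 arrays measured, the deltaDC spleen array was the brightest of the 4 for 28. Of the 22 lower genes, all of them above background on all 4 arrays, 21 had a deltaDC thymus signal within 2-fold of the WT thymus signal and 16 within 2-fold of the WT spleen signal. Closeness of the thymus arrays was not particular to this list. Among genes above background on all 4 arrays, it held for all 7 higher immature thymocyte genes and all 6 lower macrophage genes. It did not hold in every list. The counts were 4 of 6 lower NK cell genes, 3 of 5 lower helper T cytokines, 1 of 3 higher B cell genes and 0 of 6 higher erythroid genes. The shares over all genes were not counted.

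Cxcr6, a chemokine receptor of tissue T cells, had 2027 on deltaDC thymus and 41451 on deltaDC spleen, against 1396 on WT thymus and 1606 on WT spleen (-4.35 ± 0.08). Gzmb, the granule protease granzyme B, had 284 on deltaDC thymus and 3203 on deltaDC spleen, against 289 on WT thymus and 233 on WT spleen (-3.50 ± 0.09). S100a4, a calcium-binding protein of motile cells, had 12641 on deltaDC thymus and 95868 on deltaDC spleen, against 11004 on WT thymus and 9024 on WT spleen (-2.92 ± 0.07). In these 3 genes the deltaDC spleen array stood apart and the other 3 lay close together. Cxcr3, a receptor of type 1 T cells, was lower on WT thymus than on WT spleen too, though within 2-fold, with 2061 on deltaDC thymus and 23159 on deltaDC spleen, against 2905 on WT thymus and 5187 on WT spleen. S100a6 (-3.43), Ccr2 (-3.28), Lgals3 (-3.20), Id2 (-3.08), Anxa1 (-2.88), Klrg1 (-2.63), Maf (-2.54), Lgals1 (-2.24), S100a11 (-2.15), Tigit (-2.11), Prdm1 (-2.01), S100a10 (-1.92), Batf (-1.53), Fgl2 (-1.34), Il1rl1 (-1.20), Cd44 (-1.19) and Lag3 (-1.07) were lower too. Rora stood at -0.997, just inside 2-fold, and Gata3, Pdcd1 and Havcr2 at 0.06, -0.15 and 0.10.

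**Figure D2:**
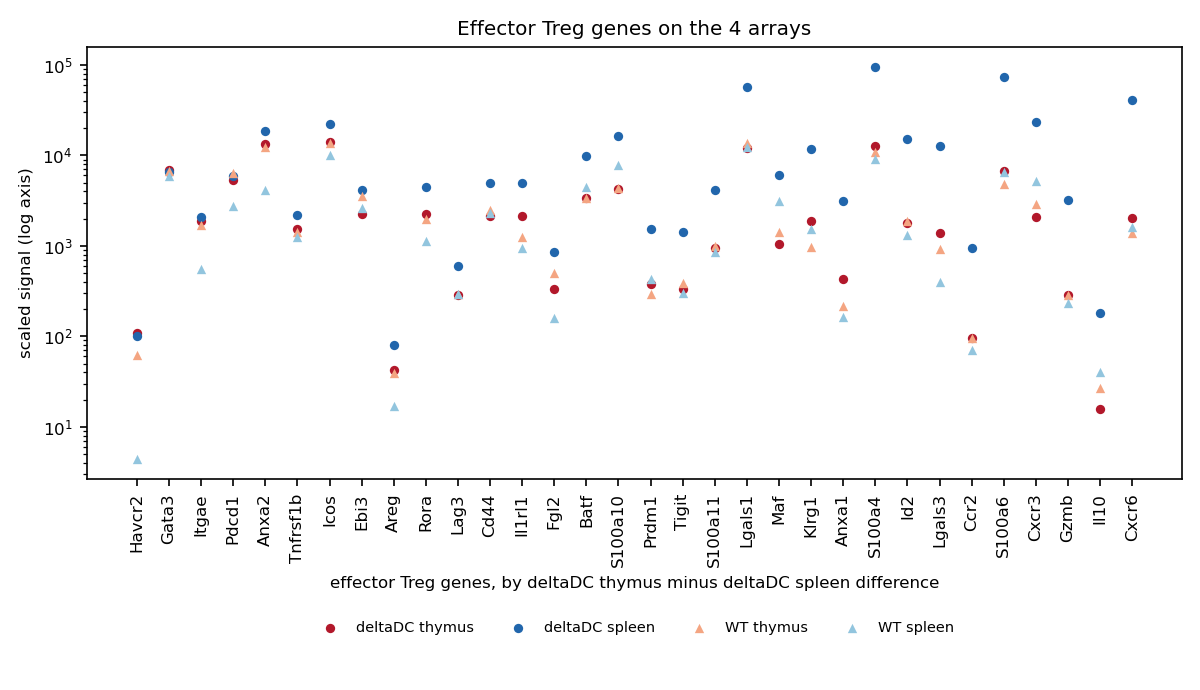
Scaled signal (log axis) of 32 effector Treg genes on the deltaDC thymus, deltaDC spleen, WT thymus and WT spleen arrays, 1 point an array, ordered by the deltaDC organ difference. The deltaDC spleen points stand highest for most genes, with Cxcr6 at 41451 against 2027 on deltaDC thymus.

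Markers of innate-like T cells, NK cells and neutrophils were low on the deltaDC thymus array relative to deltaDC spleen as well, and their part in the effector result was not tested. Of 10 NK genes measured, 6 were lower and 1 higher (median -1.53), 3 more were lower by a bound, and 0 of the list's 13 were missing from the array. The 13 summed to 16297 on deltaDC thymus and 34226 on deltaDC spleen, against 13598 on WT thymus and 4217 on WT spleen. Of these sums, Nkg7 alone held 7537 on deltaDC thymus and 23544 on deltaDC spleen, against 7326 on WT thymus and 2588 on WT spleen. The defining receptors Ncr1 and Klre1 had 11.5 and 12.7 on deltaDC thymus and 72.0 and 152 on deltaDC spleen. Of 9 innate-like genes measured, 5 were lower and 2 higher (median -2.10), and their sum was 3572 on deltaDC thymus and 6430 on deltaDC spleen, against 3486 on WT thymus and 697 on WT spleen. Zbtb16, the factor of natural killer T cells, had 60.5 on deltaDC thymus and 1032 on deltaDC spleen, against 44.0 on WT thymus and 79.9 on WT spleen. Of 8 neutrophil genes measured, 5 were lower and 1, Mpo, higher (median -2.55), and their sum over all 12 was 39888 on deltaDC thymus and 49895 on deltaDC spleen, against 44534 on WT thymus and 53892 on WT spleen. Only 3 of the 12 were measured on both WT arrays, so the WT spleen sum rests on few genes. The neutrophil sums therefore do not describe the list as a set. S100a9 had 626 on deltaDC thymus and 6456 on deltaDC spleen, against 90.3 on WT thymus and 3.86 on WT spleen.

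Among helper T cytokines, 5 of 10 measured genes were lower and 0 higher, with a median of -1.03. Il17a, Il17f and Il22 were lower by bounds of 3.60-fold, 2.42-fold and 2.30-fold. Against the brightest unmeasured gene of the thymus array these were 2.61-fold, 1.76-fold and 1.67-fold, so only Il17a stayed past 2-fold. Il3 was 2.11-fold above its own dim spleen signal, and 1.135-fold above the brightest unmeasured gene of the spleen array. Il4, the type 2 cytokine, had 47.3 on deltaDC thymus and 1685 on deltaDC spleen, against 23.4 on WT thymus and 66.1 on WT spleen (-5.15 ± 0.05). Ifng, the type 1 cytokine, had 162 on deltaDC thymus and 3162 on deltaDC spleen, against 433 on WT thymus and 869 on WT spleen (-4.28 ± 0.08). Both genes were lower in the thymus of both genotypes. Ccl5, a chemokine of activated T and NK cells, had 5843 on deltaDC thymus and 37633 on deltaDC spleen, against 5734 on WT thymus and 2380 on WT spleen, so its direction differed between the genotypes. Csf2 (-2.92) and Tnf (-1.28) were lower, and Il2 (-0.46), Il21 (-0.78) and Xcl1 (-0.02) lay within 2-fold. In WT, 4 cytokine genes were higher, 2 lower and the median was 0.87.

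Of 18 helper T transcription factors, 7 were lower and 0 higher (median -0.77). Tbx21, which encodes T-bet, the type 1 factor, had 385 on deltaDC thymus and 6402 on deltaDC spleen, against 452 on WT thymus and 723 on WT spleen (-4.05 ± 0.09). Runx3 (-1.19) and Nfil3 (-1.21) were lower beside Zbtb16, Id2 and Maf, and Bcl6 (0.26), Id3 (0.32) and Ahr (0.71) lay within 2-fold. In WT 2 were higher, 1 was lower and the median was -0.15.

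Of 28 chemokine receptor and homing genes, 15 were lower and 2 higher (median -1.06). The lymph node homing receptor Ccr7 had 48985 on deltaDC thymus and 18461 on deltaDC spleen, against 35896 on WT thymus and 33588 on WT spleen (1.41 ± 0.07). Ccr8 was the other higher gene at 1.01. Lower beyond those already named were Ccr10 (-3.40), Ccr3 (-2.24), the purinergic receptor P2rx7 (-1.53), Ccr4 (-1.44), the follicle homing receptor Cxcr5 (-1.34), Gpr15 (-1.33), Itgb1 (-1.23), Gpr183 (-1.11), Itgb7 (-1.07) and Plxnd1 (-1.04). In WT the median was 0.05, with 5 genes higher and 5 lower.

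Quiescence and egress genes passed 2-fold at a share near that of all measured genes, of which 5.41% were higher and 6.11% lower. Of 23 measured, Ccr7 and Bach2 were higher and Il7r, whose product carries the survival signal of interleukin-7, lower, and their median was -0.03. Bach2 had 2929 on deltaDC thymus and 1183 on deltaDC spleen, against 2535 on WT thymus and 2411 on WT spleen (1.31 ± 0.08). Il7r had 3683 on deltaDC thymus and 10099 on deltaDC spleen, against 3271 on WT thymus and 5096 on WT spleen (-1.46 ± 0.07). Bach2 was thus lowest on the deltaDC spleen array and Il7r highest on it. Igfbp4 (0.88), Actn1 (0.81), Lef1 (0.61), Bcl2 (0.44), Foxp1 (0.27), Slfn1 (0.20), Tcf7 (0.07), Foxo1 (0.02) and the egress receptor S1pr1 (-0.03) lay within 2-fold. So did Btg2 (-0.10), Btg1 (-0.15), Slfn2 (-0.48), Klf2, which drives S1pr1, at -0.50, Txnip (-0.65), Pdlim4 (-0.68), Il6ra (-0.77), Dapl1 (-0.78), S1pr4 (-0.84) and Klf3 (-0.96). In WT 0 were higher, 6 were lower, Dapl1 furthest at -2.84, and the median was -0.54.

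Type I interferon response genes stood mostly above 0. Of 30 measured, 7 were higher, 0 lower, and the median was 0.55. Ifi44 had 241 on deltaDC thymus and 40.8 on deltaDC spleen, against 168 on WT thymus and 44.2 on WT spleen (2.56). The antiviral GTPase Mx2 had 1506 on deltaDC thymus and 358 on deltaDC spleen, against 1380 on WT thymus and 496 on WT spleen (2.07). Ifit1 (1.64), Oasl2 (1.605), Oasl1 (1.46), Rsad2 (1.15) and Ifit3 (1.13) followed, and Irf7 was just within 2-fold at 0.99. In WT 3 were higher, 0 were lower and the median was 0.18. Of 15 measured TGF-beta response genes, 5 were higher (Ldlrad4 1.73, Tgfbr3 1.64, Id1 1.41, Skil 1.29 and Tgfbr1 1.09) and Tgfb3 was lower at -1.85.

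Proliferation genes were close between the deltaDC organs. Of 37 measured, 1 was higher, the methylation maintenance factor Uhrf1 at 1.53, 0 were lower, and the median was 0.20. Over all measured genes, 5.41% were higher and 6.11% lower. Mki67, the proliferation antigen Ki-67, had 5543 on deltaDC thymus and 7106 on deltaDC spleen, against 7691 on WT thymus and 1859 on WT spleen. Top2a, the mitotic topoisomerase, had 1525 on deltaDC thymus and 1021 on deltaDC spleen, against 1910 on WT thymus and 258 on WT spleen. WT spleen was the lowest of the 4 arrays for both. In WT 28 of 37 were higher and the median was 1.75.

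Counts in further lists stand beside 5.41% higher and 6.11% lower over all measured genes, and some of these lists lay at or above those shares. Ribosomal protein genes had 0 of 27 past 2-fold, with a median of -0.04 in deltaDC and -0.52 in WT, and oxidative phosphorylation genes had 0 of 24 and a median of 0.10. Of 8 Gimap genes, GTPases of lymphocyte survival, all stood below 0 and Gimap7 was lower at -1.51 (median -0.85). Of 20 cholesterol synthesis genes, Insig1 and Stard4 were lower at -1.05 and -1.42 (median -0.55). Of 15 genes of the interleukin-2 and STAT5 response, Stat5a was higher at 1.17, and Socs3 (-2.08) and Pim1 (-1.25) were lower. Of 23 TNF receptor family genes, Tnf, Tnfsf14 (-2.53) and Fasl (-3.15) were lower. The antigen presentation genes had 0 of 19 past 2-fold and a median of -0.34. Of 10 Notch genes measured Myc was higher and Dtx1, a Notch target, lower at -2.29, while Notch3, Ptcra and Nrarp were higher by bounds. Against the brightest unmeasured gene of the spleen array, Nrarp was 1.33-fold higher. Of 21 stress genes Hspa1a was higher at 4.62 and Fos at 1.13, and Klf6 was lower at -1.33. Apoptosis genes had Pmaip1 (-1.25) and Bik (-2.41) lower of 18, and glycolysis genes had 0 of 21 past 2-fold, with Vegfa 15.02-fold above its own dim spleen signal.

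**Figure D3:**
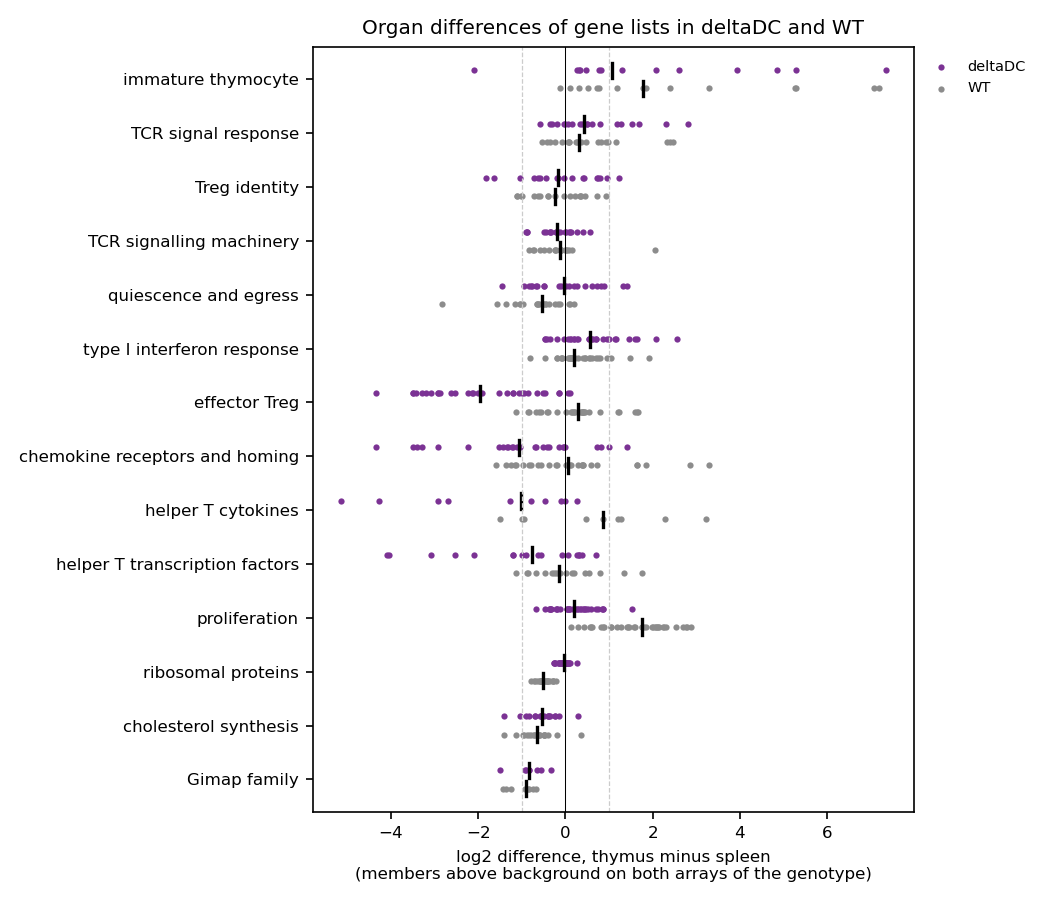
Log2 thymus minus spleen difference (horizontal) of the measured members of 14 gene lists, 1 point a gene, with deltaDC above WT in each row, a black bar at the median and dashed lines at 2-fold. The effector Treg points of deltaDC centre at -1.97 and those of WT at 0.29, while proliferation centres at 0.20 in deltaDC and at 1.75 in WT.

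Genes of several other cell types were higher in deltaDC thymus, beside 5.41% higher and 6.11% lower over all measured genes. Of 10 B cell genes measured, 7 were higher and 0 lower (median 1.95), 2 more by a bound, and the 13 on the array summed to 7794 on deltaDC thymus and 2332 on deltaDC spleen, against 3845 on WT thymus and 2443 on WT spleen. Ms4a1, which encodes the B cell surface protein CD20, had 803 on deltaDC thymus and 21.7 on deltaDC spleen, against 269 on WT thymus and 4.64 on WT spleen. Of 8 erythroid genes measured, 6 were higher and 1 lower (median 1.39), with a sum of 70660 on deltaDC thymus and 23799 on deltaDC spleen, against 17594 on WT thymus and 9338 on WT spleen. Thymic epithelial genes had Prss16 (2.97) and Ccl25 (2.14) higher of 5 measured and 4 more by bounds, while the defining factor Foxn1 was dim on all 4 arrays. Against the brightest unmeasured gene of the spleen array, Krt5 of these bounds was 1.70-fold higher. Stromal genes had Col1a2 (2.58) and Fn1 (1.44) higher of 4 measured and 5 more by bounds. Plasma cell genes had 2 of 7 higher and 1 lower, plasmacytoid dendritic cell genes 2 of 7 higher, Cox6a2 and Ly6d, with 1 more by a bound, and conventional dendritic cell genes 1 of 7 higher and 1 lower, with 1 more higher by a bound. Among them Xcr1 and Clec9a of conventional dendritic cells were dim on all 4 arrays. Macrophage genes had 0 of 13 measured higher and 7 lower (median -1.03), with 1 higher and 2 lower by bounds, and with Hmox1 at -3.11 and Cd5l at -4.30. Of 5 CD8 T cell genes 2 were higher and 2 lower, and of 2 platelet genes 0 differed. Pf4 of platelets was lower by a bound of 6.66-fold, and Cpa3 of mast cells was higher by a bound of 60.5-fold. Against the brightest unmeasured gene of the other array, Pf4 was 4.83-fold lower and Cpa3 28.5-fold higher. The part of these cells in the values above was not tested.

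**Figure D4:**
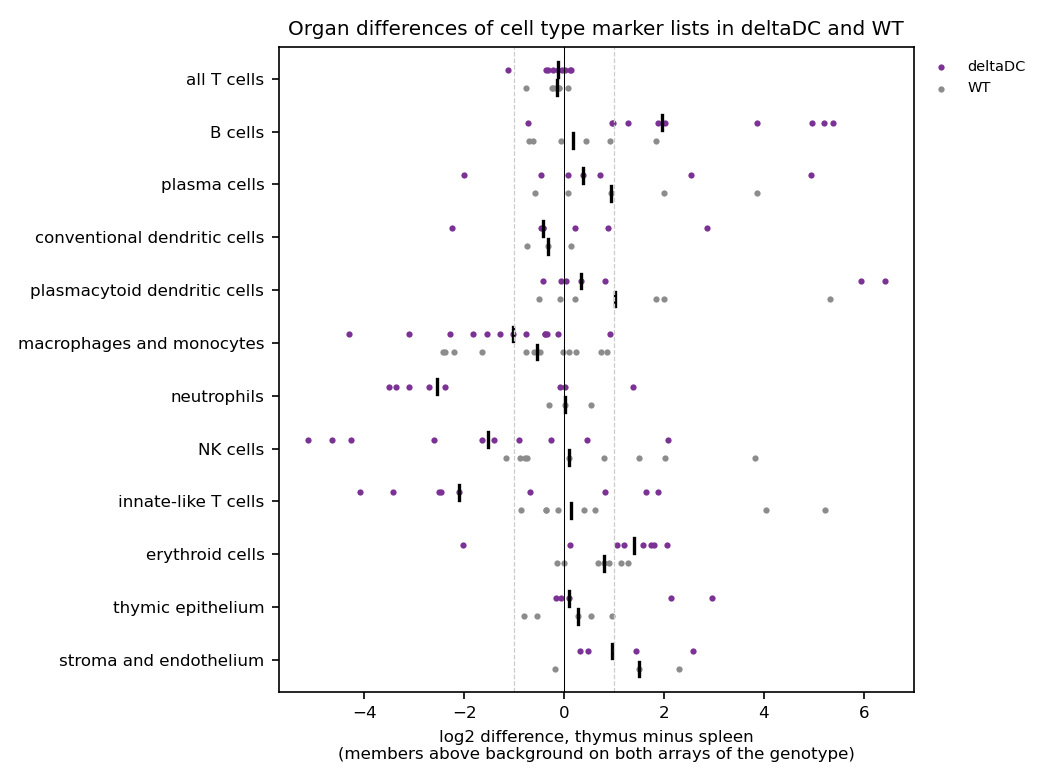
Log2 thymus minus spleen difference (horizontal) of the measured members of 12 cell type marker lists, 1 point a gene, with deltaDC above WT in each row, a black bar at the median and dashed lines at 2-fold. B cell genes centre at 1.95 in deltaDC and NK cell genes at -1.53.

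The same measure in WT called 811 of 12451 genes higher (6.51%) and 375 lower (3.01%), 1186 in all (9.53%). WT thymus and deltaDC thymus are separate arrays, as are the spleens, so no array is shared between the comparisons, but the difference between them has no test with 1 array each. In the 12256 genes that all 4 arrays measured, the organ differences of the genotypes correlated across genes, which are no independent replicates, with a Pearson r of 0.577 and Spearman's rho of 0.554. Higher in both genotypes were 345 genes, 59.3% of those higher in deltaDC and 43.7% of the 789 higher in WT. Lower in both were 166, 23.2% of the 714 lower in deltaDC and 46.5% of the 357 lower in WT. In opposite directions at 2-fold, 23 genes were lower in deltaDC and higher in WT, led by Lgals3, Ccl5, Il18rap and Ggt1 by the size of the deltaDC difference. Fcmr, the IgM receptor, was the 1 gene the other way, with 449 on deltaDC thymus and 182 on deltaDC spleen, against 189 on WT thymus and 436 on WT spleen.

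By the gap between the organ differences of deltaDC and WT, Vpreb3, Cyp4f18, Kcnh6, Fcmr, Stra6, Pkhd1, Ube2d1, Gm9903, Acvr1c and Tcap were furthest above 0. Cyp4f18, a leukotriene-metabolising enzyme, had 207 on deltaDC thymus and 118 on deltaDC spleen, against 1377 on WT thymus and 8791 on WT spleen. Cd163l1, Klrc1, Emp1, Lgals3, Ifitm1, Ltb4r1, Sytl3, 5830411N06Rik, Arl4d and Cxcr6 were furthest below. Cd163l1, a scavenger receptor family gene, had 915 on deltaDC thymus and 1467 on deltaDC spleen, against 1315 on WT thymus and 35.3 on WT spleen, so WT spleen alone was dim.

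**Figure D5:**
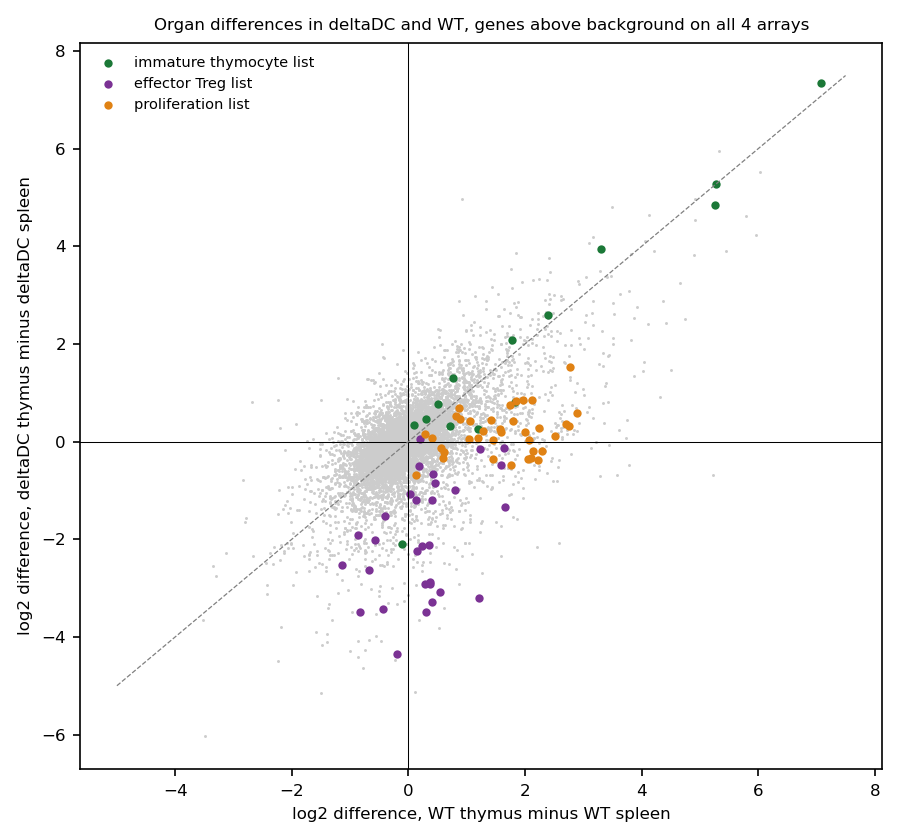
Log2 thymus minus spleen difference in deltaDC (vertical) against that in WT (horizontal) for 12256 genes above background on all 4 arrays, 1 point a gene, with the immature thymocyte, effector Treg and proliferation lists coloured and a dashed line of equal differences. Immature thymocyte genes lie near the line, effector Treg genes mostly below it and proliferation genes mostly below it.

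The only test of organ that the design allows is a fit of genotype plus organ over all 4 arrays with 1 residual degree of freedom, run with limma on 13459 genes. It called 0 genes at an adjusted p under 0.05, with a lowest adjusted p of 0.05002, while 2704 genes had an unadjusted p under 0.05, 1456 higher and 1248 lower in thymus. Of the 1472 deltaDC genes at 2-fold, 908 were among them. The fit uses the same deltaDC arrays that picked these genes, so the overlap is no separate support. The same fit with normexp background, with the median of a gene's probes and with a trended prior called 249, 66 and 131 genes.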

How the data were processed

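RNA of Tregs of deltaDC thymus, deltaDC spleen, WT thymus and WT spleen was labelled with Cy3 from 10 ng (RIN 8.4 to 9.9) and hybridised to 4 one-colour Agilent arrays on 1 slide scanned on 1 date, per the labels' protocols and the file headers. The scanner files deposited by the authors hold intensity of fluorescence, background-subtracted and detrended by Agilent Feature Extraction 10.7.3.1 per the file headers, with no scaling between arrays, and other columns hold flags of 0 or 1. The authors also deposited a log2 matrix, quantile normalized per its header, whose columns each correlated best with their own array (r 0.996 to 0.997) and had medians of 4.10 to 4.15. It was used as an alternative, and its offset stays unknown. Probe coordinates in the files are on mm9, and none was used.

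Each array holds 62976 spots, 3671 of them controls, and 59305 others with 55681 probes. Of these, 27475 probes were named by accession and 3498 by symbol through RefSeq names, 24591 had no name and 117 several. Spots with an outlier flag (110 to 168 an array) were left out and 0 were saturated. Log2 intensity minus the array's 75th percentile (417, 392, 406 and 340.0 on deltaDC thymus, deltaDC spleen, WT thymus and WT spleen) was averaged over repeated spots, and the brightest probe stood for a gene. Between 48.7% and 50.7% of spots were well above background. Repeated spots had an SD of 0.31 log2 units under a signal of 50 and 0.05 above 10000.

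Genes were counted at 2-fold with no test. A fit of genotype plus organ was made with limma 3.58.1 (R 4.3.3), two-sided, with Benjamini-Hochberg adjustment over all genes tested. The fit was then run on simulated data whose spread was drawn from its own prior, so that run cannot check the prior. Python 3.11.15 with numpy 2.4.6 and pandas 2.3.3 did the rest. The 38 lists hold 679 entries, 667 of them on the array. Members and lists were chosen with earlier results of these data known. Some genes are not reported here by name, though they stay in the counts. Named were, these aside, the 15 highest and 15 lowest measured genes, the 5 highest and 5 lowest bounds, the list members with the largest differences and all members of 4 core lists, and the 10 genes furthest on either side by the deltaDC minus WT gap. Examples given beyond these, among them Gata3, Pdcd1, Havcr2, Mki67, Top2a, Irf7, Il2, Il21, Xcl1, Ahr, Bcl6, Id3, the remaining effector Treg, homing and interferon genes and some marker genes, were chosen after their values were seen. Promoters were 250 upstream bases of GRCm38.p6 for 27025 genes. Alternatives were normexp background, quantile scaling, a percentile over detected probes, the deposited matrix, the median over probes, 2 other filters, a 4-fold limit and a trended prior.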

Additional observations from a re-analysis of the deposited data

Results flagged for a closer look

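Several organ differences ran in opposite directions in the genotypes, or differed strongly between them, and none of these differences was tested. As the list's deltaDC median minus its WT median, each over the genes measured in that genotype, effector Treg genes stood at -2.25, helper T cytokines at -1.90 and chemokine receptor and homing genes at -1.11. Neutrophil genes stood at -2.58 (8 measured in deltaDC, 3 in WT), NK cell genes at -1.63 and innate-like T cell genes at -2.25. Of single genes, Emp1 had a gap of -4.66, Lgals3 of -4.41, Ifitm1 of -4.35 and Ccl5 of -3.96. Nkg7 had -3.14, Tgfb3 -3.07 and Fgl2 -2.999, while Fcmr had 2.51. Each of these genes was lower in deltaDC thymus than in deltaDC spleen and higher in WT thymus than in WT spleen, except Fcmr, which ran the other way.

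Probes without a gene symbol, which enter no comparison above, carried signal. Of 24708 such probes, 8134 (32.9%) were well above background on both deltaDC arrays, against 0.325% of 308 negative control spots. Of these, 315 were at least 2-fold higher and 376 lower on the deltaDC thymus array.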

How the results depend on the processing

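With normexp background, 414 genes were higher and 533 lower in deltaDC, 495 higher in WT and 206 lower in WT. With no filter on dim genes the counts were 1922 higher and 1639 lower in deltaDC, and 1870 higher and 1436 lower in WT, and the share of WT calls that were higher was 56.6% in place of 68.4%. At 4-fold, 189 were higher and 226 lower in deltaDC. The fit of organ called 207 higher and 42 lower genes with normexp, 64 and 2 with the median over probes, 111 and 20 with a trended prior, and 0 under the other alternatives. Normexp was run with an offset of 50, while the median signals of the arrays lay between 17.0 and 21.4. The cause was not tested, except that no filter adds dim genes and 4-fold is a stricter limit. Of 163 named genes at 2-fold in deltaDC, 146 stayed so with normexp, 160 with the deposited matrix, 160 with the median over probes and 161 with quantile scaling. No value changed sign past 2-fold in any alternative run. Of the deltaDC list medians under alternatives, 252 stayed and 14 moved by more than 0.31 log2 units, the SD of repeated dim spots, a limit chosen after the data were seen. No paired analysis was possible because each group is 1 array, and genotype is already the block in the fit. Against the brightest unmeasured signal, bounds past 2-fold numbered 294 higher and 137 lower, in place of 594 and 212. Dim signals limit 6 thymocyte, 5 stromal and 4 epithelial genes to bounds.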
